A study of Drosophila melanogaster with 12 samples.

Results

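Testes mutant for sa were compared with wild-type testes on all 18769 Drosophila probe sets of an Affymetrix expression array, and the gene families that were lower and higher without sa are described here. The comparison used 6 of the 12 arrays of the study, and all 12 entered the fit that estimated the spread. The sa flies carried the alleles sa1/sa2, and the wild-type flies were labelled y,w. The study also holds 3 arrays each of aly2/aly5P mutant testes and of testes in which Med22, a subunit of the Mediator complex, was knocked down by RNAi in spermatocytes with Bam-Gal4 and Dicer2. Each of these 4 groups had 3 arrays. All flies were 1 day old and kept at 25 °C, testes were dissected free of seminal vesicles and accessory glands, and 250 ng of total RNA was labelled per array. No source says that the sa or the wild-type arrays were made from separate sets of animals, and the p-values therefore cover the variation seen among 3 arrays, which may be technical.

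Sa is a testis-specific TBP-associated factor (tTAF), the testis form of the general transcription factor subunit Taf8. The tTAFs are made in primary spermatocytes, where they turn on genes for sperm formation together with tMAC, the testis meiotic arrest complex that holds Aly and Topi, and in tTAF mutants spermatocytes arrest before the meiotic divisions. Because little is transcribed after meiosis in the fly, most RNA used to build sperm is made in spermatocytes. RNA was measured from whole testes, so fewer cells of a type and less RNA per cell cannot be told apart in any result below.

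Signals are log2 values, in which a difference of 1 is 2-fold. Arrays of the same genotype were close to each other, with Pearson correlations over probe sets of 0.989 to 0.996 among sa arrays and 0.983 to 0.993 among wild-type arrays, against 0.893 to 0.922 between sa and wild type. Fest, a germline gene of the testis, had signals of 14.26, 13.29 and 14.47 in sa and of 14.22, 14.15 and 13.68 in wild type, bright on all 6 arrays. Median signals were 3.91 to 4.02 on sa arrays and 3.66 to 3.80 on wild-type arrays. The RNA of y, a body pigmentation gene, had signals of 6.10, 6.35 and 6.34 in sa testes and of 2.25, 2.25 and 2.18 in wild-type testes, which carry a y allele. The labels give the sa flies no such allele, so loss of sa and other differences between the stocks cannot be told apart for genes like this.

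The targeted gene itself was low. The sa probe set, on 3L, had signals of 5.98, 5.54 and 6.01 in sa testes, against 10.63, 10.91 and 10.96 in wild-type testes. The groups did not overlap, and the difference was -4.99 ± 0.14 on the log2 scale (SE), or 31.8-fold, with an adjusted p of 5.91e-08 from limma. In the direct comparison, sa RNA was also lower in sa testes than in aly testes, by -7.80 on the log2 scale, and than in Med22RNAi testes, by -4.64.

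Of the other 4 tTAF genes, none was called lower in sa testes. Here and below a probe set is called when its adjusted p from limma was under 0.05 and the change was at least 4-fold, and 7.69% of all probe sets were called lower and 9.52% higher. The RNA of Taf12L, the testis form of Taf12, rose, with signals of 14, 13.86 and 14.02 in sa and 11.12, 11.36 and 11.48 in wild type (2.64 ± 0.10). That of nht, the testis form of Taf4, rose as well, with signals of 12.04, 11.72 and 11.82 in sa and 9.50, 9.69 and 9.74 in wild type (2.22 ± 0.12). Neither gene's arrays overlapped between the groups. The nht call was lost when array medians were set equal (1.97) or arrays were centred on probe sets with a signal of at least 6 (1.89). The differences were 1.68 ± 0.09 for mia, the testis form of Taf6, and 0.89 ± 0.20 for can, the testis form of Taf5, both under the 4-fold limit.

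The tMAC genes were not called lower either. Of 9 measured, 0 were called lower and 3 higher, with a median of 1.81, against 0 over all probe sets and 0.76 over those with a mean signal of at least 6 in sa or wild type. The called genes were tomb (2.58 ± 0.33), comr (2.38 ± 0.45) and the histone-binding subunit gene Caf1-55 (2.03 ± 0.10). Comr and Caf1-55 were no longer called without the first wild-type array, at 1.76 and 1.95, which left 1 call in the list, and Caf1-55 was not called without the first sa array, at 1.99. The aly difference was 0.65 ± 0.31, and topi, which encodes a zinc finger subunit, was the only member with a negative difference, at -1.41 ± 0.12. Its signals were 9.43, 9.80 and 9.53 in sa against 10.93, 11 and 11.06 in wild type, without overlap.

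Across the array, 1443 probe sets (7.69%) were called lower and 1786 (9.52%) higher in sa testes, and the values of 1442 and 1784 of these did not overlap between the groups. The median difference was 0 over all 18769 probe sets and 0.76 over the 8551 with a mean signal of at least 6 in sa or wild type, of which 15.7% were called lower and 19.4% higher. These shares are the closer background for lists whose genes are expressed in testis. Lowered probe sets fell further than raised ones went up. Their median difference was -3.35, with 476 at 16-fold or more, while that of the raised ones was 2.55, with 115 at 16-fold or more. The lowered probe sets had a median signal of 7.5 in sa and 11.36 in wild type, and 148 (10.3%) were under a log2 of 3 on all sa arrays, close to the lowest value of the table. For those 148, and for the 113 raised ones under 3 on all wild-type arrays, the fold is only a bound, and for 40 of the lowered and 36 of the raised ones that bound is itself under 4-fold. In 617 (42.8%) the mean in sa testes was still 8 or more. The raised ones had a median signal of 9.40 in sa and 6.69 in wild type. Among lowered probe sets with 1 gene symbol, 884 (66.5%) carried only a CG number in place of a name, against 33.9% of the raised ones and 41.5% of all such probe sets. The lowered ones made up 44.7% of all calls as the data were deposited, and 58.7% when arrays were centred on the probe sets with a signal of at least 6, which moved every difference by -0.33. With array medians set equal the share was 55.2%, at a shift of -0.24, and with quantile normalization it was 54.3%.

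**Figure D1:**
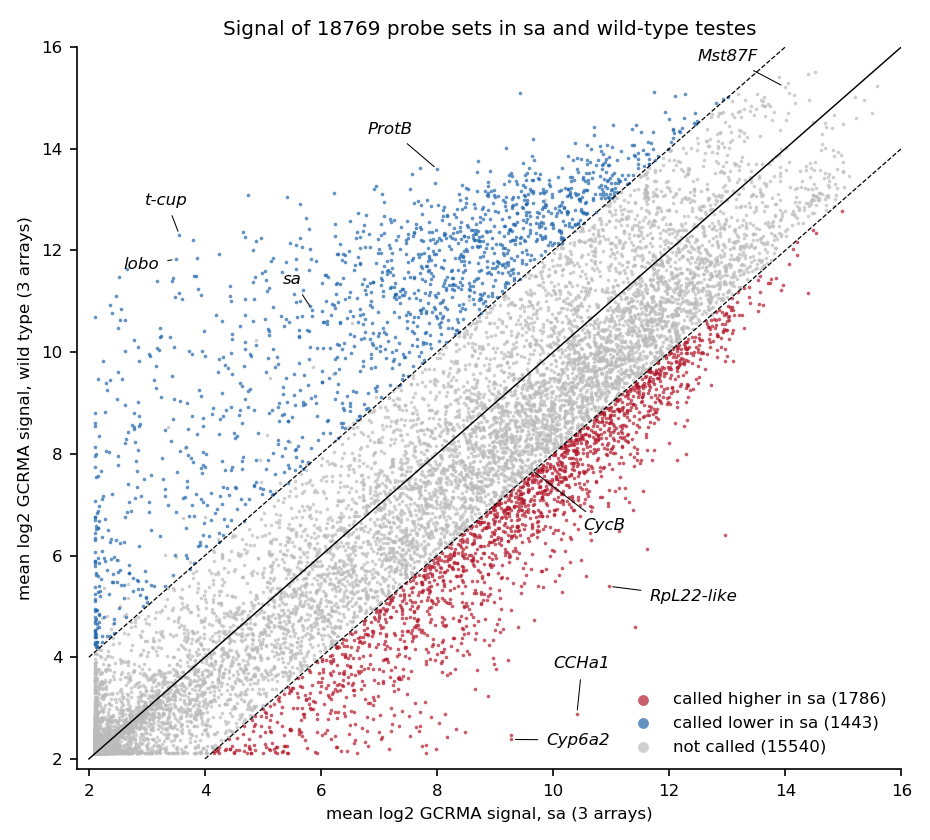
Mean log2 signal of each probe set in sa testes (x axis, 3 arrays) and in wild-type testes (y axis, 3 arrays). Blue points were called lower in sa and red points higher, the solid line marks equal signal and the dashed lines a 4-fold difference. The lowered probe sets spread far above the upper line, with t-cup at a mean of 3.56 in sa and 12.30 in wild type, while most raised ones lie close to the lower line.

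The single arrays differed within these sets. Among the 1443 lowered probe sets the third sa array held the highest of the 3 sa values in 878, and its median over them was 7.73, against 7.41 and 7.42 on the first and second sa arrays. The first wild-type array held the lowest wild-type value in 1217 of the 1786 raised probe sets, with a median of 6.44 against 6.84 and 6.88 on the others. Leaving out any sa or wild-type array in turn gave 1421 to 1493 lower and 1581 to 1903 higher calls.

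Most genes that pack the sperm nucleus fell. Of 12 measured sperm chromatin genes, 9 were called lower and 0 higher, with a median difference of -3.72. ProtB, a protamine that takes the place of histones in sperm, had signals of 7.76, 7.53 and 8.73 in sa and of 13.26, 13.74 and 13.77 in wild type. The groups lay far apart, and ProtB fell by 5.59 ± 0.35 on the log2 scale, or 48.0-fold (adjusted p = 2.22e-06, limma). ProtA, the other protamine of the pair, had 10.57, 10.59 and 10.95 in sa and 14.15, 14.49 and 14.62 in wild type (-3.72 ± 0.17). Tpl94D, a transition protein present between histones and protamines, had 9.59, 9.13 and 9.84 in sa and 13.26, 13.37 and 13.14 in wild type (-3.73 ± 0.26). The signals of both stayed well above background in sa testes. Mst77F, a linker-histone-like sperm protein, did not reach the 4-fold limit, with 13.56, 13.15 and 13.81 in sa and 15.04, 15.14 and 15.04 in wild type (-1.56 ± 0.18). Neither did tHMG1 and tHMG2, which encode HMG box proteins of spermatids, at -1.46 and -1.09.

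The sperm tail proteins of the Mst and don juan families were divided. Of 14 measured genes, 6 were called lower and 0 higher, with a median of -1.34. Mst36Fa had signals of 3.54, 2.66 and 5.33 in sa and 11.87, 11.75 and 10.87 in wild type, a difference of -7.65 ± 0.66 or 201-fold. The spread between the sa arrays was wide, yet all 3 lay far under the wild-type ones. Dj and djl, which encode don juan proteins of the sperm tail, fell by 3.36 ± 0.47 and 2.89 ± 0.56. Several short cysteine-rich Mst genes remained among the brightest of the array in both genotypes. Mst87F had 13.94, 13.90 and 14.12 in sa and 15.14, 15.26 and 15.25 in wild type (-1.23 ± 0.18), without overlap but under the limit. Mst84Db, Mst98Ca and Mst84Dc had differences of -1.43, -1.25 and -0.80, and Mst84Dd was called, at -2.44. The testis-specific gene pair janB and ocn was divided as well, with janB at 10.60, 9.96 and 11.19 in sa and 14.08, 13.94 and 14.20 in wild type (-3.49 ± 0.27), and ocn at 14.07, 13.72 and 14.33 in sa and 14.66, 14.76 and 14.68 in wild type (-0.66 ± 0.14).

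Comet and cup genes, whose RNAs gather at the growing ends of spermatid tails and are transcribed late, fell in large part. Of 9 comet genes 5 were called lower, and of 11 cup genes 7, with a median of -2.81 in each list (2 genes stand in both) and 0 called higher. T-cup was among the 10 largest falls of the whole array, with signals of 2.85, 2.61 and 5.22 in sa and 12.30, 12.29 and 12.31 in wild type (-8.74 ± 0.70, adjusted p = 8.53e-06, limma). The third sa array of t-cup lay above the other sa arrays and still far under every wild-type array. W-cup had 9.07, 7.77 and 10.73 in sa and 14.22, 14.10 and 13.74 in wild type (-4.83 ± 0.64). Scpr-C, sunz and schuy fell by 5.03, 4.51 and 3.86, while fan and m-cup, with signals near 13 in sa testes, had differences of -1.04 and -0.67.

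Of 7 measured Y-linked genes 5 were lowered by at least 4-fold with groups near background taken at a log2 of 3, and the other 2, kl-2 and kl-5, passed the call only on the deposited values (median -3.07, with or without that bound). These large genes are transcribed in spermatocytes, and several encode dynein heavy chains of the sperm tail. Ppr-Y, a Y-linked phosphatase-related gene needed for fertility, had 2.12, 2.16 and 2.16 in sa and 6.73, 7 and 6.76 in wild type, so it was at least 14.2-fold lower with the sa group taken at a log2 of 3. Its sa signals lay at the lowest values of the table. ORY had 4.12, 3.19 and 6.21 in sa and 8.36, 8.53 and 8.32 in wild type (-3.90 ± 0.66). For the dynein heavy chain genes the third wild-type array was also near background. Kl-3 had 2.11, 2.11 and 3.03 in sa and 7.03, 6.66 and 2.76 in wild type, so the groups overlapped (-3.07 ± 0.96). Kl-5 had 2.11, 2.11 and 2.15 in sa and 5.76, 5.69 and 2.82 in wild type, at least 3.38-fold lower (adjusted p = 0.0104, limma). Kl-2 lay at 2.11 on all sa arrays and at 5.67, 5.01 and 2.13 in wild type, at least 2.41-fold lower (adjusted p = 0.0463, limma). The kl-2 call was lost when any of 11 of the 12 arrays was left out, and the kl-3 call was lost without the first or second array of either genotype, at -2.29 to -2.91. Leaving out the third wild-type array took the kl-3 difference to -4.43.

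The axoneme, the microtubule core of the tail, lost many of its motor and spoke RNAs. Of 22 axonemal dynein genes, 10 were called lower and 0 higher (median -1.54), the Y-linked ones included, and 2 of the 10 are kl-2 and kl-5. The light chain gene robl37BC had 5.4, 5.81 and 5.78 in sa and 11.80, 12.12 and 12.30 in wild type, a difference of -6.41 ± 0.34. Dnah3, a dynein heavy chain gene, had 5.01, 4.99 and 6.2 in sa and 10.85, 10.56 and 10.54 in wild type (-5.25 ± 0.46). ODA-Dnal1, an outer arm light chain gene, was under a log2 of 3 on all sa arrays and at 7.84, 8.25 and 8.08 in wild type, at least 33.4-fold lower. All 3 genes were without overlap. Of 9 tektin, radial spoke and related genes 5 were called lower and 0 higher (median -2.02). Lobo, a subunit gene of the complex that regulates axonemal dynein, had 3.19, 2.96 and 4.34 in sa and 11.85, 11.94 and 11.70 in wild type (-8.33 ± 0.36), and Rsph1, a radial spoke head gene, fell by 3.49 ± 0.35. The tubulins had 0 of 8 members called by limma, with 3 higher and 1 lower at an unadjusted p under 0.05. The testis beta-tubulin betaTub85D had 12.48, 12.87 and 12.88 in sa and 14.64, 14.75 and 14.67 in wild type (-1.94 ± 0.11). This was just under the 4-fold limit, and the call was made when arrays were centred on their median or on probe sets with a signal of at least 6.

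Further families are given by counts, with the lists chosen after values had been seen. Of 9 dynein assembly factors 6 were called lower, and of 11 tubulin tyrosine ligase-like enzymes, which add amino acids to tubulin, 4, among them TTLL6A (-4.87 ± 0.28). TTLL12 of the same list was called higher (2.04 ± 0.35), which was lost without the second sa array or the first or the second wild-type array, at 1.68 to 1.96, and under the 3 other scalings. Of 10 measured genes of the gamma-tubulin ring, which starts microtubules, 3 were called lower and 2 higher. The testis forms of its subunits fell far. T-Grip91 had 3.46, 3.54 and 5.87 in sa and 11, 10.96 and 9.84 in wild type (-6.31 ± 0.66), and t-Grip128 was at least 62.1-fold lower, with 2.51, 2.77 and 2.59 in sa and 8.97, 9.20 and 8.70 in wild type. The general forms Grip128 and Grip163 were called higher, at 2.25 ± 0.16 and 3.47 ± 0.20. Phosphatases related to protein phosphatase 1 had 5 of 10 members lower and 1 higher, with PpN58A at -6.35 ± 0.20 and Pp1alpha-96A at 2.42 ± 0.25.

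Mitochondria fuse into the nebenkern in early spermatids and run along the tail, and the fly testis expresses its own forms of many mitochondrial proteins. Of 36 measured genes of this list 20 were called lower and 0 higher, with a median of -2.07. COX6AL2, a form of a cytochrome c oxidase subunit, had 5.70, 4.52 and 6.98 in sa and 12.71, 12.70 and 12.51 in wild type (-6.91 ± 0.54, adjusted p = 7.59e-06, limma). Tim17a1, of the inner membrane import channel, had 6.28, 6.62 and 7.33 in sa and 12.53, 12.68 and 12.31 in wild type (-5.76 ± 0.32). SdhAL, a form of the succinate dehydrogenase flavoprotein, had 6.88, 7.95 and 7.54 in sa and 11.96, 12.27 and 12.38 in wild type (-4.75 ± 0.37). No array of these genes overlapped between the groups. At the other end, ATPsynbetaL, a form of the ATP synthase beta subunit, had 11.55, 11.64 and 11.25 in sa and 9.59, 9.87 and 10.05 in wild type (1.65 ± 0.13). The calls of tomboy20 and Hsp60B were lost without the first sa array, at -1.95 and -1.98, that of Hsp60B also without the second wild-type array, at -1.99, and that of COX4L without the third wild-type array, at -1.93. Of 10 genes of nebenkern formation only knon was called, with 10.29, 9.70 and 10.53 in sa and 12.30, 12.18 and 12.17 in wild type (-2.04 ± 0.22), and this call was lost without the second sa array, at -1.80. Fzo, the fusion GTPase of the nebenkern, had 8.76, 8.22 and 8.79 in sa and 10.41, 10.62 and 10.05 in wild type, a difference of -1.77 ± 0.19 without overlap.

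Enzymes that yield energy outside mitochondria were lowered in part. Of 19 glycolysis genes 7 were called lower and 0 higher (median -1.23). CG11249 of this list had 5.96, 6.79 and 6.77 in sa and 12.27, 12.69 and 12.77 in wild type (-6.07 ± 0.34), and the testis hexokinase gene Hex-t2 fell by 3.02 ± 0.26. Pfk, which encodes phosphofructokinase and is not restricted to the testis, had 9.69, 9.98 and 9.90 in sa and 12.15, 12.34 and 12.34 in wild type (-2.42 ± 0.11). The called members were not the whole pathway, since Gapdh1, Pgk and Ald1 had positive differences of 1.41, 1.2 and 0.70.

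**Figure D2:**
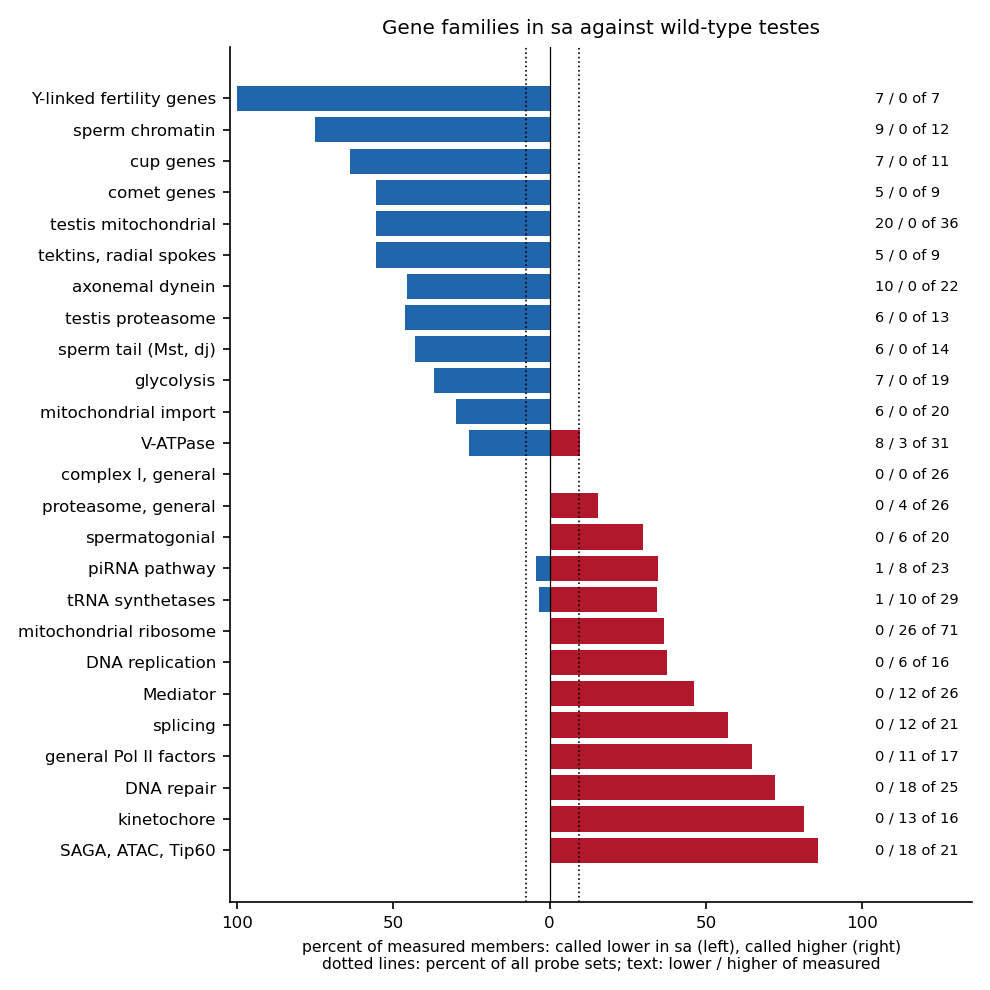
Percent of measured genes called lower in sa testes (blue, to the left) and called higher (red, to the right) in 25 gene lists, with the counts at the right. Dotted lines mark the percent of all probe sets, 7.69 lower and 9.52 higher. Lists of sperm parts extend to the left and lists of transcription, DNA repair and kinetochore genes to the right.

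The testis has second copies of several general machines. In the pairs below most of these copies fell in sa testes, and no general form was called lower. Not all such copies fell. A list of testis translation paralogs had 3 of 18 measured genes called lower and 3 higher, with a median of 0.53. These shares were near the 15.7% lower and 19.4% higher among probe sets with a signal of at least 6. The germline form RpL22-like, which rose, is not among the pairs. Of 88 gene pairs listed after values had been seen, 72 were measured, with 58 different general forms. The testis forms had a median of -2.77, with 53 of 72 called lower and 3 higher, and the general forms had a median of 1.48, with 0 of 58 called lower and 14 higher. In 68 of 72 pairs the testis form had the lower difference, and 57 of 58 general forms had a positive one, against 52 to 56 of 58 under the 3 other scalings of the arrays. These counts include the general form UQCR-11 (2.23 in both genotypes) and the testis form Prosbeta4R2 (2.20 in sa, 2.35 in wild type), near the lowest value. They also take RpL37-1 (1.23) as a testis form and RpL37-2 (3.22) as its general form, an assignment that these data do not settle. The median over probe sets with a signal of at least 6 was 0.76. In the proteasome, which degrades proteins, 6 of 13 testis forms were called lower and 0 higher. Prosalpha3T, the testis form of a 20S core subunit, had 7.29, 7.25 and 7.21 in sa and 10.41, 10.97 and 11 in wild type (-3.54 ± 0.20), while its general form Prosalpha3 was at 1.27 ± 0.09. Prosalpha4T1 fell by 4.14 ± 0.22, beside 1.68 ± 0.20 for Prosalpha4. The catalytic subunit gene Prosbeta2 was called higher, with 13.85, 14.15 and 13.79 in sa and 11.13, 11.21 and 11.33 in wild type (2.71 ± 0.09), and its testis forms Prosbeta2R1 and Prosbeta2R2 were at -1.65 and -0.48. In the V-ATPase, a proton pump, Vha36-2 had 3.42, 4.98 and 5.65 in sa and 12.18, 12.31 and 12.29 in wild type (-7.57 ± 0.53), beside 0.54 ± 0.18 for Vha36-1. COX6AL2, described above, stood beside 1.57 ± 0.09 for levy, the general form.

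**Figure D3:**
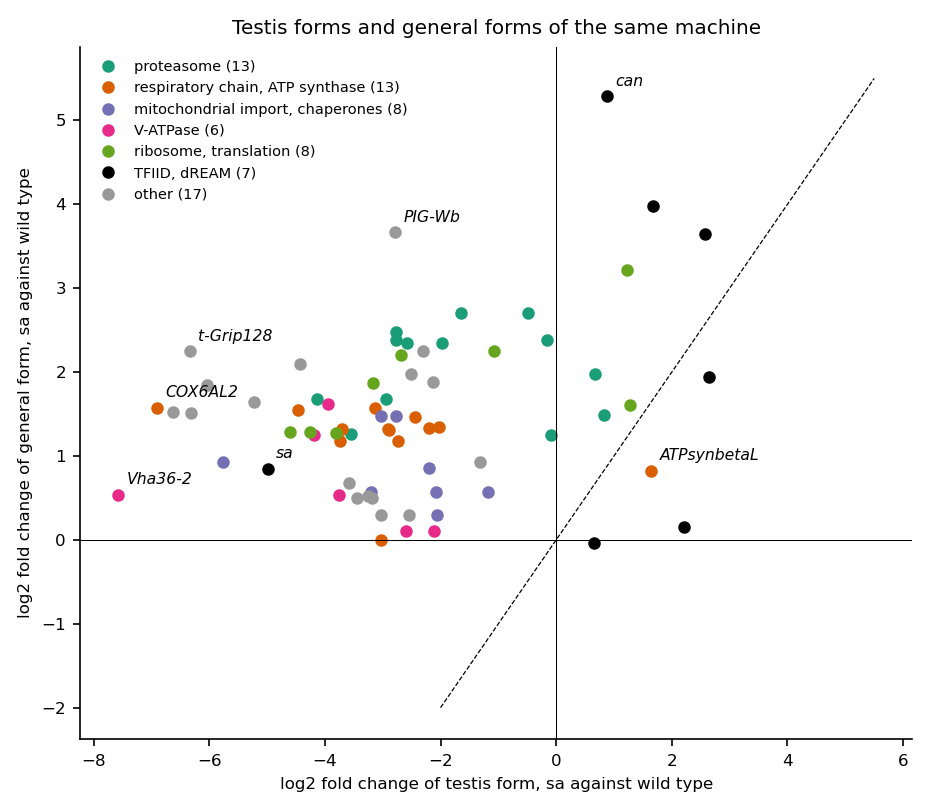
Log2 difference between sa and wild-type testes of the testis form (x axis) and of the general form (y axis) of 72 gene pairs, coloured by the machine they belong to. The dashed line marks equal differences. Most pairs lie in the upper left, and 4 lie under the dashed line, among them ATPsynbetaL at 1.65 for the testis form and 0.82 for ATPsynbeta.

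The 4 pairs in which the testis form was the higher one were nht with Taf4, Taf12L with Taf12, aly with mip130 and ATPsynbetaL with ATPsynbeta. In the TFIID pairs of can and mia the testis forms were not called and the general forms rose. Taf5 had 8.48, 9.21 and 8.28 in sa and 3.33, 2.58 and 4.19 in wild type (5.29 ± 0.39), and Taf6 had 10.86, 11.18 and 10.83 in sa and 6.33, 6.99 and 7.62 in wild type (3.98 ± 0.28). Beside these stood 0.89 for can and 1.68 for mia, given above. Taf8, the general form of sa, had 9.87, 10.21 and 9.83 in sa and 8.87, 9.45 and 9.04 in wild type (0.85 ± 0.16).

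Protein making and protein breakdown held members that went both ways. Ribosomal proteins had 3 of 41 measured genes called lower and 4 higher, with a median of 1.46. These shares were near the 7.69% lower and 9.52% higher over all probe sets. They were under the 15.7% lower and 19.4% higher among probe sets with a signal of at least 6. The lowered ribosomal genes were RpS28a (-4.61 ± 0.37), RpS28-like (-4.26) and RpL10Aa (-3.80), copies of RpS28b (1.29) and RpL10Ab (1.27). RpL22-like, which encodes a germline form of a large subunit protein, was among the largest rises, with 11.22, 10.44 and 11.21 in sa and 5.35, 5.16 and 5.68 in wild type (5.56 ± 0.22). In the ubiquitin system of spermatid individualization, the step that strips cytoplasm from sperm, 4 of 25 genes were called lower. This share was near the 15.7% called lower among probe sets with a signal of at least 6. Roc1b, a ring finger subunit gene of the Cullin-3 ligase of this step, had 8.38, 8.55 and 8.57 in sa and 12.88, 12.89 and 13.03 in wild type (-4.43 ± 0.18). Klhl10, which encodes the substrate adaptor of that ligase, had 7.56, 2.81 and 7.89 in sa and 11.52, 11.31 and 10.18 in wild type (-4.92 ± 1.23). The second sa array set much of this value, which was -3.28 without it. Cul3 itself has 2 probe sets that disagreed. The brighter had 13.09, 12.80 and 13.48 in sa and 13.92, 13.69 and 13.52 in wild type (-0.59 ± 0.18), and the other had 2.72, 2.53 and 3.85 in sa and 10.13, 10.43 and 9.32 in wild type (-6.93 ± 0.40). The 2 members of the list called higher were the caspase genes Dronc (2.19) and Dcp-1 (2.21), and neither was called without the first wild-type array, at 1.95 and 1.76, or under the 3 other scalings. CSN1a, the testis form of a COP9 signalosome subunit, fell by 6.04 ± 0.39, beside 1.85 ± 0.05 for CSN1b.

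Genes of the meiotic divisions did not fall in this way. Of 15 measured, 0 were called lower and 3 higher, with a median of 0.81. CycB, the cyclin of entry into division, had 9.65, 9.61 and 9.60 in sa and 7.45, 7.96 and 7.67 in wild type (1.92 ± 0.27), above wild type on every array and just under the 4-fold limit. Twe, the meiotic Cdc25 phosphatase, had 7.74, 7.28 and 7.65 in sa and 7.40, 8.23 and 7.60 in wild type, with overlap (-0.19 ± 0.22, adjusted p = 0.659, limma). Bol, the translational activator of twe, had 11.99, 10.54 and 12.32 in sa and 13.31, 13.18 and 12.92 in wild type (-1.52 ± 0.40, adjusted p = 0.0129). The 3 called genes were Rbp4 (2.71 ± 0.13), an RNA-binding repressor of CycB translation, gwl (2.49 ± 0.20), the Greatwall kinase, and grau (3.11 ± 0.33), a zinc finger factor. In the direct comparison with aly testes CycB was 5.35 higher in sa testes on the log2 scale (adjusted p = 6.1e-07, limma) and bol 3.16 higher (adjusted p = 0.00029), while twe, at 1.25, was under the 4-fold limit (adjusted p = 0.0019). Against Med22RNAi testes the same 3 genes differed in sa testes by -0.05, 0.36 and 0.93. Orb2, a translational regulator of spermatids, fell in sa against wild type by 2.38 ± 0.23, and fest, at about 14 in both genotypes, differed by -0.01.

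**Figure D4:**
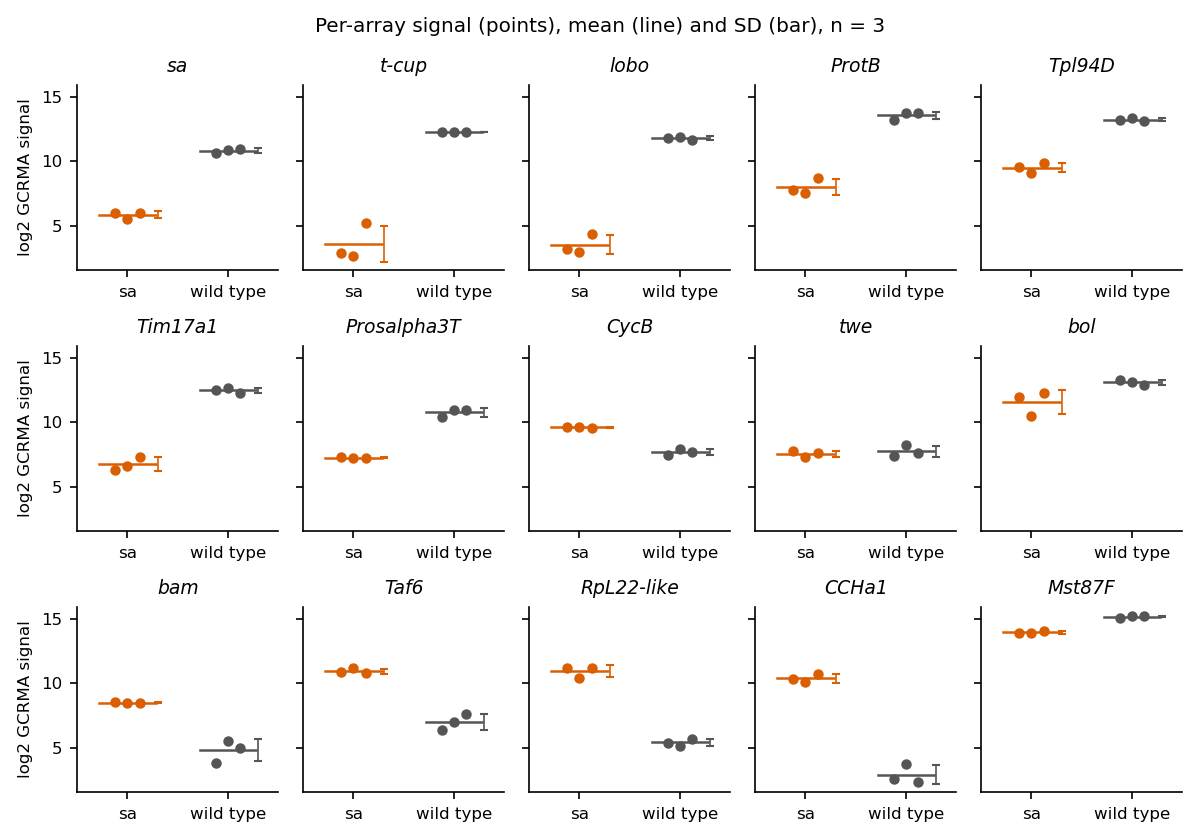
Log2 signal of 15 genes on each array (points), with the mean (line) and SD (bar), for sa testes (left, orange) and wild-type testes (right, grey). The genes of the upper row and Tim17a1 and Prosalpha3T lie lower in sa, while bam, Taf6, RpL22-like and CCHa1 lie higher, and twe overlaps.

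The sperm genes of sa testes were also set directly against those of aly testes. In aly against wild-type testes 10.3% of all probe sets were called lower and 14.3% higher, and in Med22RNAi against wild-type testes 9.02% lower and 11.3% higher. Over all probe sets 1374 (7.32%) were called higher and 556 (2.96%) lower in sa than in aly testes. Median signals were 3.07 to 3.11 on aly arrays, under the 3.91 to 4.02 on sa arrays. The direct counts here are given only for the values as deposited, without rescaling for this difference. Of the 36 testis mitochondrial genes 21 were higher in sa than in aly testes and 0 lower, and their median difference from wild type was -2.07 in sa and -5.4 in aly. The cup genes were at -2.81 in sa and -8.47 in aly, with 6 of 11 higher in sa in the direct test and 0 lower. Sperm chromatin genes were at -3.72 in sa and -8.15 in aly, with 7 of 12 higher in sa and 0 lower. Tektin-A had a difference from wild type of -2.20 in sa and -10.52 in aly, and the direct difference between sa and aly was 8.32. All 3 aly arrays were under 3 for 10 of the 36 mitochondrial, 5 of the 11 cup and 5 of the 12 sperm chromatin genes, so the aly falls are bounds there. The fall was not called shallower in sa for every gene. T-cup (1.03), lobo (0.63) and Prosalpha4T1 (0.02) did not pass the test between sa and aly, with adjusted p-values from limma of 0.36, 0.26 and 1. T-cup and lobo had means of 2.53 and 2.87 in aly testes, near the lowest value. The test therefore cannot compare the depth of the fall for t-cup and lobo.

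Against Med22RNAi testes the sa arrays differed in both directions, with 857 probe sets (4.57%) called lower and 802 (4.27%) higher. T-cup was 6.22 lower on the log2 scale in sa than in Med22RNAi testes (adjusted p = 0.00016, limma), lobo was 4.98 lower and Mst36Fa 5.26 lower. A second, dimmer lobo probe set lay near the lowest value in both, with means of 2.17 in each, against 8.36 in wild type. ProtB was 3.16 lower in sa, and ProtA 2.15 lower. For Prosalpha3T the difference was 0.31 (adjusted p = 0.35) and for SdhAL 0.38 (adjusted p = 0.63). The other arrays had been published before those of Med22RNAi, so knockdown and array set cannot be told apart in these values.

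Genes of early germ cells were raised in part. Of 20 measured genes used in spermatogonia and germline stem cells 6 were called higher and 0 lower, with a median of 0.37. Means of 5 of the 20 were under 3 in both genotypes. The 13 with a mean signal of at least 6 in sa or wild type had a median of 1.05. Over all such probe sets the median was 0.76, and 19.4% were called higher. Bam, which drives spermatogonia out of proliferation, had 8.58, 8.45 and 8.48 in sa and 3.83, 5.52 and 4.96 in wild type (3.73 ± 0.35, adjusted p = 2.09e-05, limma). Zpg, the germline gap junction gene, had 7.87, 7.89 and 7.90 in sa and 4.89, 5.21 and 5.26 in wild type (2.77 ± 0.13). The groups did not overlap in either. Piwi (2.43), nanos (2.27), aub (2.16) and mei-P26 (2.15) completed the calls, and those of nanos and aub were lost without the first wild-type array, at 1.83 and 1.97. The germline gene bgcn, at 10.3 in sa and 10.4 in wild type, differed by -0.13, and the germline markers vas, ovo and otu were near the lowest value of the table in both genotypes. Of 23 piRNA pathway genes, which silence transposons, 8 were called higher and 1 lower (median 1.33), and 5 were called higher without the first wild-type array. The Tudor protein gene BoYb had 8.51, 8.46 and 8.37 in sa and 3.6, 5.17 and 3.33 in wild type (4.41 ± 0.41), while papi, a Tudor gene of mitochondria, fell to 9.06, 8.98 and 9.08 in sa, against 11.85, 11.91 and 11.60 in wild type (-2.75 ± 0.10).

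Genes of DNA copying, segregation and repair were raised in large numbers. Of 16 replication genes 6 were called higher and 0 lower (median 1.69). Mcm5, a helicase subunit, had 8.40, 9 and 8.10 in sa and 4.38, 5.20 and 4.25 in wild type (3.89 ± 0.29). Cid, the centromeric histone, had 8.30, 8.82 and 8.44 in sa and 3.33, 4.24 and 4.76 in wild type (4.41 ± 0.34). Spc25, of the outer kinetochore, had 11.74, 11.64 and 11.25 in sa and 6.74, 7.37 and 7.67 in wild type (4.28 ± 0.22). The kinetochore list, chosen after values had been seen, had 13 of 16 members higher and 0 lower (median 2.30). The DNA repair list, of the same kind, had 18 of 25 higher and 0 lower (median 2.67). Fancd2, of the crosslink repair pathway, had 7.52, 7.84 and 7.56 in sa and was under a log2 of 3 on every wild-type array, at least 24.9-fold higher. The translesion polymerase gene PolZ1 had 10.13, 10.32 and 10 in sa and 5.61, 5.47 and 4.78 in wild type (4.86 ± 0.22). Of the proteins that hold meiotic chromosomes together, c(2)M, a chromosome core protein, had 6.62, 6.59 and 6.54 in sa and 2.56, 2.65 and 2.88 in wild type, at least 12-fold higher. Of 11 measured genes of male meiosis conjunction and cohesion 3 were called higher and 0 lower (median 0.34). Of 15 measured SMC and cohesin genes, a list chosen after values had been seen, 6 were called higher and 1 lower (median 0.75). The median over probe sets with a signal of at least 6 was 0.76. Cap-G, a condensin subunit gene, fell by 4.66 ± 0.16.

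Many genes of the general transcription machinery were called higher, in shares that differed between its parts. Of 17 measured general RNA polymerase II factors 11 were called higher and 0 lower, with a median of 2.23. Xpd, the TFIIH helicase, had 10.80, 11.13 and 10.60 in sa and 6.49, 7.45 and 7.49 in wild type (3.70 ± 0.26), and Mat1, of the TFIIH kinase, 11.90, 11.89 and 11.56 in sa and 8.43, 8.90 and 8.83 in wild type (3.06 ± 0.15). Mediator had 12 of 26 subunits higher and 0 lower (median 1.77), led by MED17 with 9.26, 9.90 and 9.20 in sa and 4.92, 5.35 and 5.95 in wild type (4.05 ± 0.26). The kinase module subunit gene kto was the only one of the 26 with a negative difference, at -1.02 ± 0.21. Chromatin complexes that modify histones at active genes, SAGA, ATAC and Tip60, had 18 of 21 members higher and 0 lower (median 2.50), in a list chosen after values had been seen. Spt3 of SAGA had 10.28, 10.27 and 9.76 in sa and 4.40, 6.44 and 6 in wild type (4.49 ± 0.45), and Atac2 had 8.80, 8.72 and 8.46 in sa and 4.24, 4.66 and 4.20 in wild type (4.29 ± 0.14). No array overlapped between the groups. Polycomb genes, which keep genes silent, had 5 of 12 higher and 0 lower (median 1.75). Sce, a ubiquitin ligase of this group, had 11.66, 11.12 and 11.40 in sa and 7.47, 8.27 and 8.65 in wild type (3.26 ± 0.27), and Pc had 5.66, 5.85 and 5.89 in sa and 3.38, 3.18 and 2.68 in wild type (2.72 ± 0.22). RNA polymerase II itself had 2 of 6 subunits higher, general TFIID 3 of 15 and trithorax genes 2 of 9, with 0 lower in each. The TFIID and trithorax shares were near the 19.4% called higher among probe sets with a signal of at least 6. The trithorax count was 1 under the 3 other scalings and without the first sa or the third wild-type array. Of 6 measured bromodomain and partner genes, not all of them testis forms, the tTAF partners tbrd-1 and tbrd-2 differed by 0.37 and -0.74. In the same list dikar fell by 2.52 and Brd8 rose by 4.47.

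RNA processing and synthesis of the translation apparatus went the same way. Splicing factors had 12 of 21 called higher and cleavage and polyadenylation factors 8 of 11, with 0 lower in either (medians 2.07 and 2.28). Cpsf160, a subunit that recognises the polyadenylation signal, had 11, 11.29 and 11.09 in sa and 6.57, 6.43 and 6.44 in wild type (4.65 ± 0.10), with an adjusted p of 1.45e-08 from limma. Polr3B, a catalytic subunit gene of RNA polymerase III, had 9.61, 10.12 and 9.28 in sa and 4.34, 3.96 and 5.90 in wild type (4.94 ± 0.46). Mitochondrial ribosomal protein genes had 26 of 71 higher and 0 lower (median 1.70), and 15 to 21 higher under the 3 other scalings. Of 29 tRNA synthetase genes 10 were higher and 1 lower (median 1.79), and of 8 subunits of the CCT folding chamber 6 were higher and 0 lower (median 2.23). General subunits of respiratory complex I had 0 of 26 called by limma in either direction, with a median of 0.89, and 22 were higher and 2 lower at an unadjusted p under 0.05. The raised lists of these 4 paragraphs kept a positive median under the 3 other scalings. Each lost calls under at least 1 of them, except RNA polymerase II, general TFIID and male meiosis conjunction and cohesion, whose counts did not change. At the lowest, spermatogonial genes then had 3 higher, with a median of 0.05, piRNA genes 5, kinetochore genes 8, general polymerase II factors 7, Polycomb genes 3, cleavage and polyadenylation factors 3, tRNA synthetases 6 and CCT subunits 2.

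The largest single rises had little in common by known role. CCHa1, a neuropeptide gene, had 10.37, 10.09 and 10.77 in sa and 2.58, 3.75 and 2.32 in wild type (7.53 ± 0.35). Cyp6a2, a detoxifying cytochrome P450, had 9.18, 9.67 and 8.98 in sa and 2.38 on every wild-type array, at least 77.6-fold higher. CG5397 had 9.22, 9.40 and 9.20 in sa and 2.43, 2.53 and 2.47 in wild type, at least 77.4-fold higher. Both were also under 3 on every aly array, which gives the same bounds for sa over aly, and CG5397 was under 3 on every Med22RNAi array. Against Med22RNAi testes Cyp6a2 was 6.17 higher in sa on the log2 scale. For CCHa1 the direct differences were 1.66 and 1.43, under the limit. RFeSP, of respiratory complex III, has 2 probe sets that disagreed, with 13.21, 13.39 and 13.14 in sa and 12.31, 12.49 and 12.72 in wild type for the brighter (0.74 ± 0.11), and 7.61, 8.78 and 7.53 in sa and 2.13, 2.22 and 2.25 in wild type for the other, at least 31.4-fold higher. Among the 10 largest falls, t-cup and lobo stood beside 8 genes with CG numbers, such as CG33489, with 2.12, 2.12 and 3.75 in sa and 11.66, 11.54 and 11.71 in wild type (-8.97 ± 0.41).

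Lowered genes came from the bright end of the wild-type testis and raised genes from the dim and middle range. Of 1179 probe sets with a wild-type mean of 12 to 14, 504 (42.7%) were called lower in sa testes and 5 (0.424%) higher. Of 1967 with a wild-type mean of 6 to 8, 7.17% were lower and 27.0% higher. Since the level in wild type is part of each difference, these shares are a description. By position, 4.75% of 2188 X-linked probe sets were called lower and 14.4% higher, against 10.7% lower and 11.5% higher of 11270 on the large autosome arms. Over probe sets with a signal of at least 6, the X had 8.29% lower and 24.7% higher, and the autosome arms had 17.7% lower and 18.8% higher. Of 9 probe sets assigned to the Y chromosome 7 were lower and 0 higher.

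**Figure D5:**
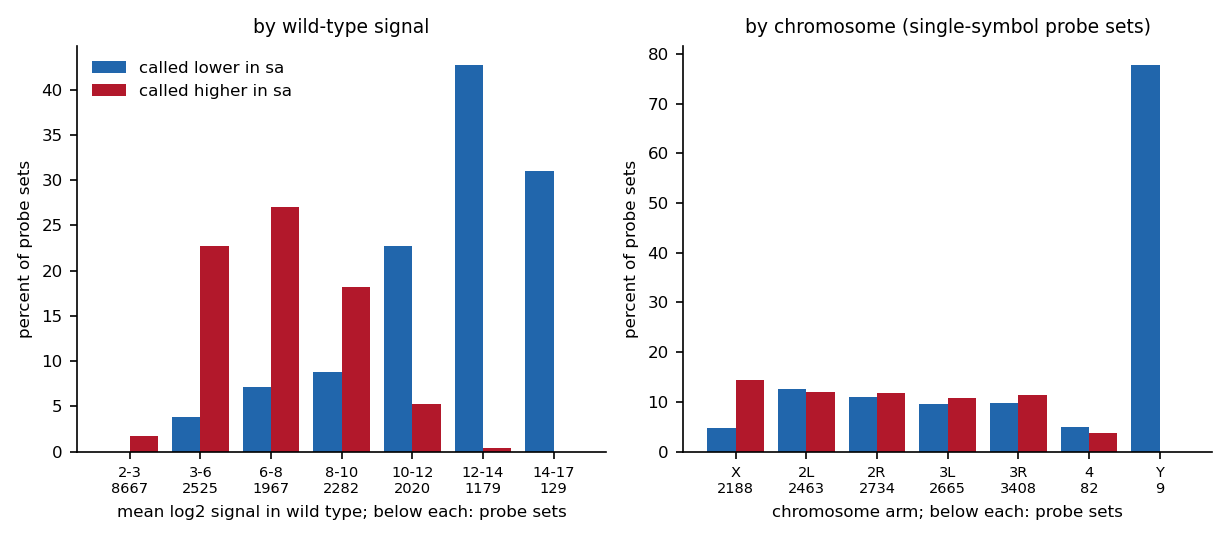
Percent of probe sets called lower (blue) and higher (red) in sa testes, by mean log2 signal in wild-type testes (left) and by chromosome arm for probe sets with 1 gene symbol (right), with the number of probe sets under each. The share called lower reaches 42.7 percent at a wild-type signal of 12 to 14, and the X has the lowest share of lowered probe sets among the large arms, 4.75 percent.

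RNA of other cell types was present and moved with the genotype in part. Of 13 muscle sheath markers 1 was called lower and 0 higher (median -0.57), and their summed linear signal was 4170 to 7641 in sa and 13606 to 17514 in wild type, without overlap. TpnC4 was the only one near the lowest value in both. Of 13 blood cell markers 1 was called higher, with sums of 2378 to 2950 in sa and 1106 to 1347 in wild type, while eater, lz and He were near the lowest value in both. Of 11 basement membrane genes 2 were called higher and 1 lower, with sums of 5388 to 6036 in sa and 2225 to 2756 in wild type. Hub and cyst cell markers had 1 of 13 called, the cadherin gene shg, with 8.59, 8.61 and 8.71 in sa and 5.34, 5.28 and 5.19 in wild type (3.37 ± 0.18), and their sums overlapped, at 1771 to 2595 in sa and 1392 to 1981 in wild type. The hub gene upd1 and the cyst cell gene tj were near the lowest value in both. Accessory gland genes were bright although the labels say the glands were removed. Of 15, 0 were called by limma and 0 had an unadjusted p under 0.05, and the sums were 16392 to 39477 in sa and 17880 to 144480 in wild type. The ejaculatory duct gene Dup99B had 4.71, 7.38 and 5.63 in sa and 14.59, 8.93 and 11.86 in wild type, and its call (-5.89) was lost without the first or the third array of either genotype or the second aly array, at -4.49 to -5.89. Fat body markers had 2 of 10 called lower, with 1 called without the first sa array or without the second or the third wild-type array and 4 without the third sa array, and with sums of 5126 to 5341 in sa and 6241 to 9442 in wild type, and the yolk protein genes were near the lowest value in both. The part of these cells in the families above was not tested.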

How the data were processed

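RNA from testes was measured on Affymetrix Drosophila arrays. The authors deposited log2 signals made with GCRMA, per the processing notes without a version. GCRMA corrects background, brings the probe values of arrays to 1 distribution and then summarises them. The deposited signals have a lowest value of 2.11 shared by all arrays, and changes near it are compressed. Their array medians still ran from 3.07 on an aly array to 4.25 on a Med22RNAi array. Of 18952 rows, 183 control rows were left out, which leaves 18769 probe sets, 13647 with exactly 1 symbol (11982 genes) in the platform annotation. 0 value columns were left out. The methods refer to an earlier publication for the analysis and to red,e controls, while the labels say y,w, which is followed here.

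In limma 3.58.1 (R 4.3.3; lmFit, eBayes, no trend) a mean per genotype was fitted to all 12 arrays and p-values were adjusted over all 18769 probe sets by Benjamini-Hochberg. A call needed an adjusted p under 0.05 and 4-fold. No filter on low signal was used. Where all arrays of a group were under 3, the fold is a bound with that group at 3. In lists a gene is represented by its probe set with the highest mean. Named genes are core list members, up to 4 called members a list in each direction, the 10 largest falls and rises, the pairs, and genes the study followed. Members and lists were chosen with earlier results of these data known. Marker sums add linear signals. On simulated data of the sa comparison (18769 probe sets) 47 of 50 changes of -3, 47 of 50 of 3, 1 of 50 of -1.5 and 0 of 50 of 1.5 were called, and 0 of 18569 unchanged ones. The changes were placed only in probe sets of middle to high mean signal, so changes in dimmer ones were not covered. Alternatives were other scalings, filters, thresholds, fits and arrays left out in turn. Python 3.11.15, pandas 2.3.3 and matplotlib 3.10.9 were used. The number of arrays limits the precision.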

Additional observations from a re-analysis of the deposited data

How the results depend on the processing

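Among the named genes called in sa against wild type, none changed sign under the alternatives tried, and genes that were not called, such as twe and fest, were not followed against wild type. The raised calls outnumbered the lowered ones as deposited, and the balance turned under each of the 3 other scalings. Against 1443 lower and 1786 higher calls, a 2-fold limit gave 2209 lower and 4138 higher, and an adjusted p alone gave 2678 lower and 5249 higher. Centring arrays on probe sets with a signal of at least 6, an alternative chosen after seeing the data, gave 1692 lower and 1189 higher. Array medians set equal gave 1637 and 1331, quantile normalization again 1556 and 1310, the 6 arrays alone 1397 and 1746, a filter at a mean of 4 gave 1400 and 1718, a floor at 4 gave 1343 and 1641, an adjusted p under 0.01 gave 1414 and 1766, fold alone 1485 and 1788, and 1 probe set per gene 1254 and 1560. Leaving out 1 array gave 1421 to 1493 lower and 1581 to 1903 higher.

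Replicate numbers are shared by the groups. Deviations of same-numbered sa and wild-type arrays had correlations of 0.28, -0.13 and -0.36, and those of differently numbered ones -0.35 to 0.48. At 3 arrays a group this check cannot settle whether the numbers pair arrays, and the main fit did not pair them. With the number as a replicate block 1435 were lower and 1784 higher. The sa comparison holds 3 arrays a group, near the lowest value folds are bounds, and 31 named results were no longer called with a floor at 4.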

Other observations

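Several large families with no known part in sperm formation held many dim genes. Of 83 measured cytochrome P450 genes, enzymes that oxidise lipids, hormones and toxins, 40 were near the lowest value in both genotypes, 5 were called lower and 2 higher, with 1 higher without the second sa array. Cyp312a1 was bright in wild type and lowered, with 6.95, 8.01 and 7.53 in sa and 12.19, 12.35 and 12.21 in wild type (-4.75 ± 0.29), while Cyp6a2 rose. Of 103 cuticle protein genes 78 were near the lowest value in both, 6 were called lower and 3 higher, with 5 higher without the first sa array. Of 56 gustatory receptor genes 52 were near the lowest value in both, 0 were called lower and 3 higher, with Gr47b at 5.97, 6.47 and 6.36 in sa and 2.23, 2.21 and 2.27 in wild type, at least 9.63-fold higher. Other families were expressed more widely. Of 34 glutathione S-transferases 3 were called lower and 1 higher, the higher count being 0 without the second sa array and 2 without the third array of either genotype. Of 30 serpins 2 were called lower and 2 higher, with Spn43Aa at 11.28, 11.93 and 11.66 in sa and 4.94, 6.66 and 6.80 in wild type (5.49 ± 0.44), and with 4 serpins lower without the second wild-type array. Of 33 tetraspanins 2 were called lower, 1 without the third wild-type array, and 5 higher, and of 7 innexins 1 lower and 3 higher. These shares stand beside 7.69% lower and 9.52% higher over all probe sets.

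Of 98 genes with noncoding RNA names (lncRNA, asRNA or CR), 15 were called lower and 1 higher, and 58 were near the lowest value in both. The RNA lncRNA:CR40465 had 2.37, 2.98 and 3 in sa and 10.03, 10.38 and 10.34 in wild type (-7.46 ± 0.53, adjusted p = 4.13e-06, limma). The eggshell gene Cp15 was measured in testes at 5.63, 5.88 and 6.18 in sa and 8.76, 9.34 and 9.32 in wild type (-3.24 ± 0.21), while 8 of the other 9 female germline markers were near the lowest value in both. Mitochondrial carriers, which move metabolites across the inner membrane, had 7 of 15 called lower and 3 higher, with Dic3 at 5.52, 6.54 and 6.64 in sa and 12.21, 12.57 and 12.75 in wild type (-6.28 ± 0.40) and Bmcp, Slc25A46a and Tpc1 higher. All 4 Tengl nuclease-like genes were called lower (median -3.88).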
